A study of Homo sapiens with 4 samples.

Results

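Open chromatin that lies between protein-coding genes, more than 10 kb and at most 200 kb from the nearest one, was described in A375 cells. Members were chosen by position alone. A nuclear region of the authors' deposited table was a member when it overlapped no protein-coding gene span of RefSeq GRCh38.p14 and its distance to the nearest such span fell in that window. This rule took 35927 of the 125985 nuclear regions, or 28.5%. The 1 remaining region of the 125986 listed covered the mitochondrial genome.

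A375 is an established human melanoma cell line with an activating BRAF mutation. ATAC-seq was used, an assay in which the transposase Tn5 inserts sequencing adapters into DNA that is not tightly wrapped in nucleosomes. One group was given octanoate, a fatty acid of medium chain length, at 1 mM for 48 h, and the other only isopropanol, the vehicle, for the same time, both in the same serum-containing medium. Each group had 2 libraries, so 4 entered the comparison, all from 1 cell line. Nothing in the labels says that the 2 libraries of a group came from separate cultures, so the p-values measure only the spread between these libraries, which may be technical.

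Open regions far from genes include enhancers, where transcription factors bind and act on a promoter at a distance, insulator sites bound by CTCF, and starts of long noncoding RNA (lncRNA) genes. An enhancer need not act on the nearest gene, so the gene names given with regions below state position only. In melanoma, distal elements are known to carry much of the binding of MITF, SOX10, TEAD and AP-1 factors that separates pigmented from undifferentiated cell states.

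The authors' deposited table held 1 row per region, with a mean of normalized read counts from all 4 libraries, the log2 fold change of octanoate over vehicle its standard error (SE) and an adjusted p (DESeq2, Benjamini-Hochberg). It held no value for a single library, so the level in each library, the spread between libraries and the depth of each library could not be given here. The group levels printed below are those implied by the deposited mean and fold change. The adjusted p covered regions whose mean reached 63.8 normalized reads, here named tested regions, 11184 of them nuclear. A region is called higher or lower below when that adjusted p was under 0.05. As a check of the cell label, 2 of 15 melanocytic genes had a tested region near an end of the gene (within 1 kb), against 10 of 16 undifferentiated melanoma genes and 13 of 15 housekeeping genes. For the marker genes of other cell types the counts were 1 of 10 (keratinocyte), 1 of 12 (lymphoid and myeloid), 0 of 9 (fibroblast) and 0 of 7 (endothelial). Neuronal genes had 14 of 27, so these counts do not single out the cell type.

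The sequences below belong to members that rose after octanoate and that held the start of a lncRNA gene. RefSeq start windows (250 bases before to 50 after the start, GRCh38.p14) overlapped 7 called members, 1 window each, and all 300 bases of each window lay inside the region. The 3 windows with a match to a searched motif and the window in the strongest called member are printed, 5′ to 3′ on the strand of the gene, a choice made after they were seen. The other 3, of LINC02848, LOC102724446 and LOC124900609, held no match. Capitals mark the matches to 4 short motifs searched on both strands, AP-1 (TGANTCA), E-box (CACGTG), ETS (CCGGAA) and TEAD (GGAATG).
LOC124904554, chr1:234657148-234657447, minus strand, near IRF2BP2: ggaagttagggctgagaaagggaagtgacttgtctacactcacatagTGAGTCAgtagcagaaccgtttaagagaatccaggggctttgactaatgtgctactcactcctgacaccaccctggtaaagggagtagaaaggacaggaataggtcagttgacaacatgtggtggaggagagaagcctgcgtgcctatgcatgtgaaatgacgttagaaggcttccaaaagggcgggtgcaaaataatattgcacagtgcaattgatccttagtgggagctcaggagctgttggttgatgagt
LOC124901788, chr7:155951035-155951334, plus strand, near SHH: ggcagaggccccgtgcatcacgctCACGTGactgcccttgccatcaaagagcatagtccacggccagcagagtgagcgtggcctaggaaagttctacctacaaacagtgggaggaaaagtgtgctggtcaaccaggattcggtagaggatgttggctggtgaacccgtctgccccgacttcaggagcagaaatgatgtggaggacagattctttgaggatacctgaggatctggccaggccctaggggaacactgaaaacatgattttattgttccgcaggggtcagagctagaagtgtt
LOC124901783, chr7:155205454-155205753, plus strand, near INSIG1: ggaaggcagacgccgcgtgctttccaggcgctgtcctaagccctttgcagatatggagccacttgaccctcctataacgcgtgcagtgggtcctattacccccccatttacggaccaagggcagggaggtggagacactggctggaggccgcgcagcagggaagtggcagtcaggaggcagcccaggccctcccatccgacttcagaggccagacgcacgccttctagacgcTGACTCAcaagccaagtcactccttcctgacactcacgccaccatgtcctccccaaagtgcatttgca
LOC105373480, chr2:740636-740935, plus strand, near TMEM18: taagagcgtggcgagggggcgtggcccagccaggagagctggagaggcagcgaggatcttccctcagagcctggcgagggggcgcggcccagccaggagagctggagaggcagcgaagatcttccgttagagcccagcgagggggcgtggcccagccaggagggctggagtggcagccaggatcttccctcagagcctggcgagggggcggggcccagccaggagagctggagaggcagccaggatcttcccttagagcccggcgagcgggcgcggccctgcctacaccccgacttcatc
The windows of LOC124904554 and LOC124901783 each held 1 AP-1 match, and that of LOC124901788 held 1 E-box match. The window of LOC105373480 held no match to the 4 motifs. It was a repeated sequence: shifted by 63 bases against itself, 83.5% of its bases were identical, and 70.0% of its bases were G or C.

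Members were mostly narrow and weak, as were the other regions away from gene ends. Their median width in the authors' deposited table was 417 bp, with quartiles of 300 and 613 bp, and they covered 18.7 of the 75.6 Mb in all nuclear regions. The median of their deposited mean was 11.0 normalized reads, with quartiles of 6.45 and 21.2. Together they held 21.5% of the summed nuclear signal. Only 1582 members, or 4.40%, were strong enough to be tested, and they made up 14.1% of all tested nuclear regions. Inside genes over 1 kb from both ends the median width was 414 bp, the median mean 11.4 and the share tested 4.95%, and over 200 kb from genes these were 398 bp, 9.25 and 3.28%.

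Open regions thinned out with distance from genes. Between neighbouring protein-coding genes there were 46.6 members per Mb at 10 to 25 kb, 45.5 at 25 to 50 kb, 42.7 at 50 to 100 kb and 37.7 at 100 to 200 kb. Beyond 200 kb the density was 22.6 per Mb, and inside genes it was 49.8 per Mb. Open regions took up 2.23% of the bases 10 to 200 kb from a gene and 1.13% of those farther away. Gaps in the assembly were not subtracted from these lengths. Members lay in 5864 gaps between neighbouring genes, with a median of 4 and at most 49 per gap. They were nearest to 7563 of the 20033 protein-coding genes (37.8%), and BLID (44 members), MYCN (39), MCTP2 (34), GPC5 (33) and SNX19 (31) had the most.

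The rule spares only protein-coding genes, so the label intergenic holds in that sense. Of the members, 9850 overlapped the span of a lncRNA gene, 862 a lncRNA start window, 1182 a pseudogene and 29 a microRNA gene, while 24828 overlapped no gene of any type. Strand was listed for 15841 of the protein-coding genes. By that strand, 15265 members lay before the start of their nearest gene and 13049 beyond its 3′ end, and for 7613 the strand was not listed.

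After octanoate, 38 members were called higher and 0 lower in the authors' deposited table (adjusted p under 0.05, DESeq2, Benjamini-Hochberg). These 38 were 2.40% of the tested members, and 33.3% of the 114 nuclear regions called. Among all tested nuclear regions, 1.02% were called higher and 0% lower. At an unadjusted p under 0.05, the authors' deposited table had 364 of the 1582 tested members higher (23%) and 3 lower (0.190%), against 14.8% and 0.107% of all tested regions. The design gives no value per library, so whether the share among members differs from that among other regions was not tested.

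The whole table leaned upward, and the members shared this lean. The median log2 fold change of all tested nuclear regions in the authors' deposited table was 0.19, and 85.7% of them were above 0. Tested members had a median of 0.26, quartiles of 0.10 and 0.42, and 86.5% above 0. After the tested median was subtracted from every region, 2 members kept an adjusted p under 0.05 (recomputed from the deposited values, Benjamini-Hochberg), against 0.0536% of all tested regions. At an unadjusted p under 0.05 after centring, recomputed from the authors' deposited table, 102 tested members were higher and 28 lower, or 6.45% and 1.77%, against 3.17% and 1.01% of all tested nuclear regions. The other 36 calls held relative to 0 but not, after adjustment, relative to the median region. Their centred log2 fold changes ran from 0.29 to 0.87. All 38 called members had a centred unadjusted p under 0.05 from the authors' deposited table. That adds no support to the calls, which were picked by the same fold changes and SE. The loss of the call applies to each named call below except those beside TSNARE1 and LY86.

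**Figure D1:**
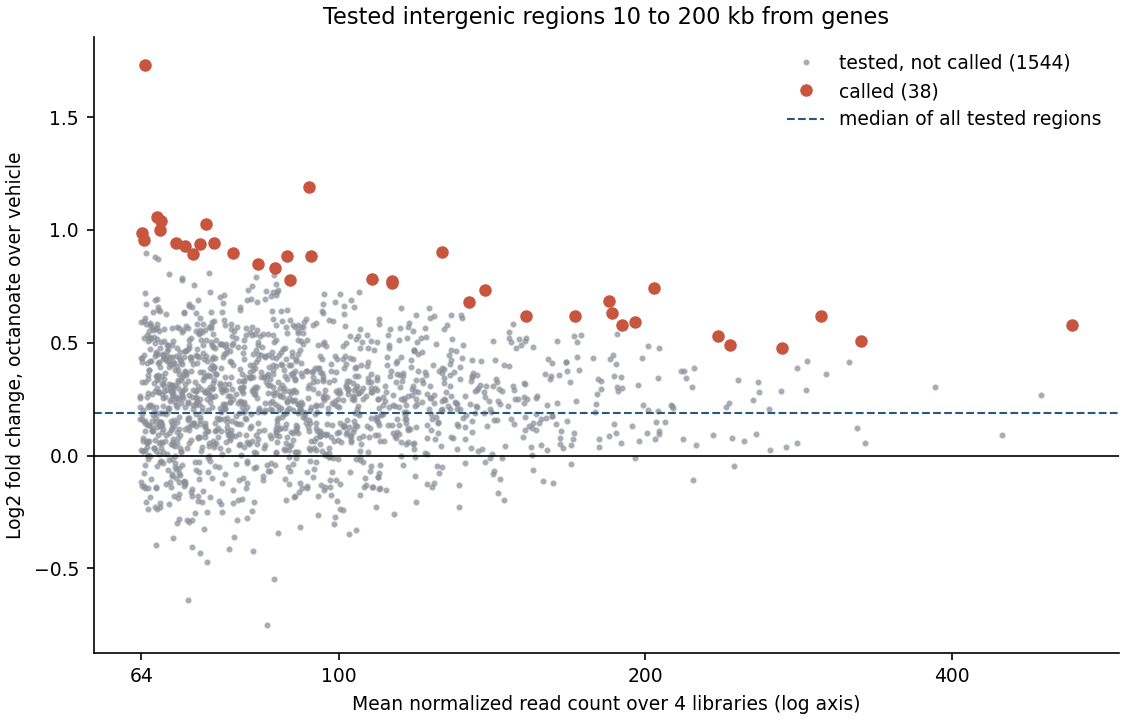
Log2 fold change, octanoate over vehicle, against the mean of the normalized read counts (log axis) for the 1582 tested members. The 38 called members, in red, all lie above 0. Called members of low mean have larger fold changes than those of high mean, because a call at a larger SE needs a larger change. The dashed line is the median of all tested regions, 0.19.

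Across the 38 called members, the authors' deposited table listed log2 fold changes of 0.48 to 1.73 with a median of 0.81, a 1.39-fold to 3.32-fold increase with a median of 1.75-fold. Only 6 at least doubled. Their means ran from 64.1 to 525 normalized reads and their widths from 701 to 3157 bp, with a median of 1271.5 bp. They were spread over 16 chromosomes, 36 gaps and 37 nearest genes. Of the 38, 22 overlapped no gene of any type, 15 lay in a lncRNA span and 2 overlapped a pseudogene.

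**Figure D2:**
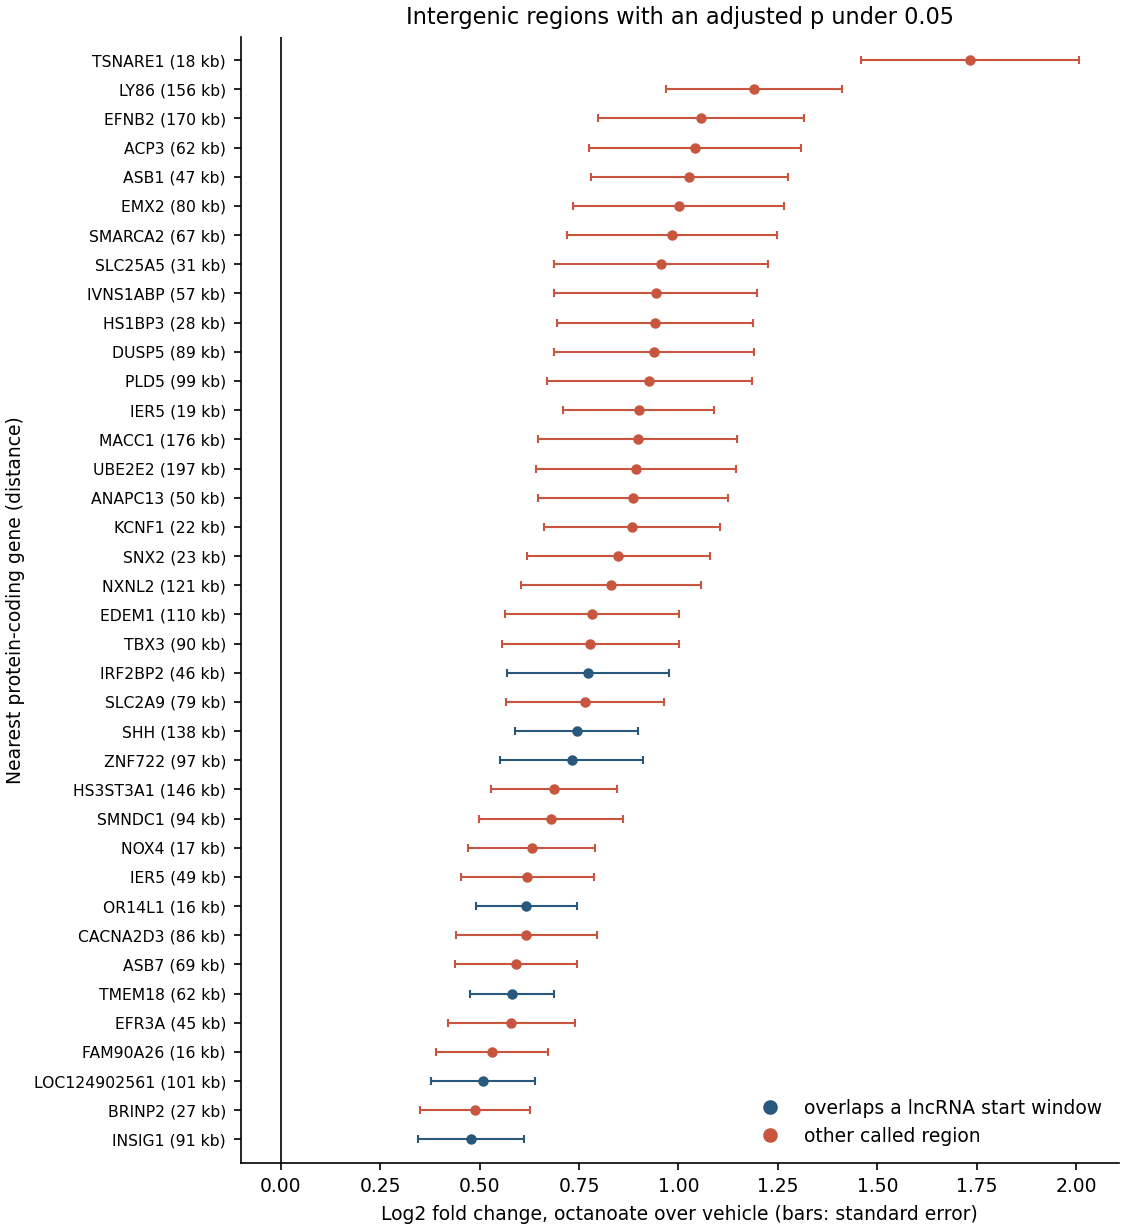
Log2 fold change (point) with its standard error (bar) for the 38 called members, named by the nearest protein-coding gene with the distance in kb. The region near TSNARE1 stands apart at 1.73, and the 7 members over a lncRNA start window, in blue, lie between 0.48 and 0.77.

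The largest rise was chr8:142191609-142193870, 18.2 kb from TSNARE1, which encodes a protein with a t-SNARE domain, and inside the lncRNA gene LOC105375792. Its implied level was 29.9 normalized reads in vehicle and 99.3 in octanoate. The authors' deposited table gave it a log2 fold change of 1.73 (SE 0.27), with 3.07e-06 as its adjusted p (DESeq2, Benjamini-Hochberg). After centring on the tested median it stood at 1.55 with an adjusted p of 0.000199, recomputed from the deposited DESeq2 values. The next was chr6:6810984-6812204, 156 kb from LY86, a partner of a Toll-like receptor family protein, on the side of RREB1, a zinc finger transcription factor that acts downstream of RAS signalling. Its implied levels were 57.0 in vehicle and 130 in octanoate, and the authors' deposited table listed 1.19 (SE 0.22) on the log2 scale with 0.000125 as its adjusted p (DESeq2). Centred, it stood at 1.00 with an adjusted p of 0.0198, again from the DESeq2 values. These were the 2 members that kept their call after centring.

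Another 4 members at least doubled. The region chr13:106318791-106319491 lay 170 kb beyond the 3′ end of EFNB2, which encodes the ligand ephrin-B2. It went from an implied 43.0 to 89.5 normalized reads, or 1.06 (SE 0.26) on the log2 scale of the authors' deposited table, with an adjusted p of 0.0123 (DESeq2). The region chr3:132253205-132255784, 61.6 kb before the start of ACP3, an acid phosphatase gene, had 1.04 with an adjusted p of 0.0190 (DESeq2). Beside ASB1, which encodes a SOCS box protein, and on the side of the bHLH factor gene TWIST2, chr2:238499592-238500641 had 1.03 with an adjusted p of 0.0103 (DESeq2). Between PDZD8, whose protein tethers the endoplasmic reticulum to other organelles, and the homeobox gene EMX2, chr10:117461498-117462644 had 1.00 with an adjusted p of 0.0268 (DESeq2). All of these values are from the authors' deposited table. Each of these 4 regions had an implied vehicle level between 43.0 and 48.7 normalized reads, under the mean of 63.8 needed for a test. Their means reached it only through the octanoate level, as did those of the regions beside TSNARE1 and LY86. Regions of such vehicle levels that fell or did not change were not tested.

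The other 9 of the 15 largest rises had log2 fold changes from 0.89 to 0.98 in the authors' deposited table. Of these, only the region near IER5 had an implied vehicle level, 88.1, above the mean of 63.8 needed for a test. A region 66.8 kb from SMARCA2, an ATPase gene of the BAF remodelling complex, at chr9:2260399-2261416, had 0.98 with an adjusted p of 0.0277 (DESeq2). On the X chromosome, chrX:119502651-119503841, 31.3 kb from SLC25A5, a mitochondrial ADP/ATP carrier gene, had 0.96 with an adjusted p of 0.0384 (DESeq2). The region near IVNS1ABP (0.94) lay in the lncRNA gene CBSLR, and the region near HS1BP3 (0.94) lay between it and RHOB, a small GTPase gene. The remaining ones were nearest to DUSP5 (0.94), PLD5 (0.93), IER5 (0.90), MACC1 (0.90, inside MACC1-OT1) and UBE2E2 (0.89). DUSP5 encodes a nuclear phosphatase of ERK, IER5 is an immediate early response gene, MACC1 encodes a regulator of the MET receptor gene, and UBE2E2 a ubiquitin-conjugating enzyme. No fall was called, so none is named as one.

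The share called differed among distance classes, while medians were close together. Within the members, 7 of 437 tested regions were called at 10 to 25 kb (1.60%), 8 of 390 at 25 to 50 kb (2.05%), 14 of 412 at 50 to 100 kb (3.40%) and 9 of 343 at 100 to 200 kb (2.62%). The median log2 fold changes of tested members in these bands, from the authors' deposited table, were 0.25, 0.27, 0.27 and 0.23. Regions outside genes within 10 kb of one had a median of 0.23 with 8 of 449 called (1.78%). Regions over 200 kb from a gene had a median of 0.25 with 12 of 542 called (2.21%), and regions inside genes over 1 kb from both ends had 0.23 with 35 of 2449 called (1.43%). The class that stood lowest was regions inside genes within 1 kb of an end, with a median of 0.16 and 21 of 6162 called (0.341%). Over all nuclear regions, tested or not, the median was 0.26 for members and 0.22 for the others, 0.048 apart. Against gene interiors alone that difference was 0.022, and against regions over 200 kb from a gene it was 0.023. Regions up to 10 kb outside a gene had an all-region median of 0.267, against 0.264 for the members, so the members did not stand above that class. None of these differences was tested.

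**Figure D3:**
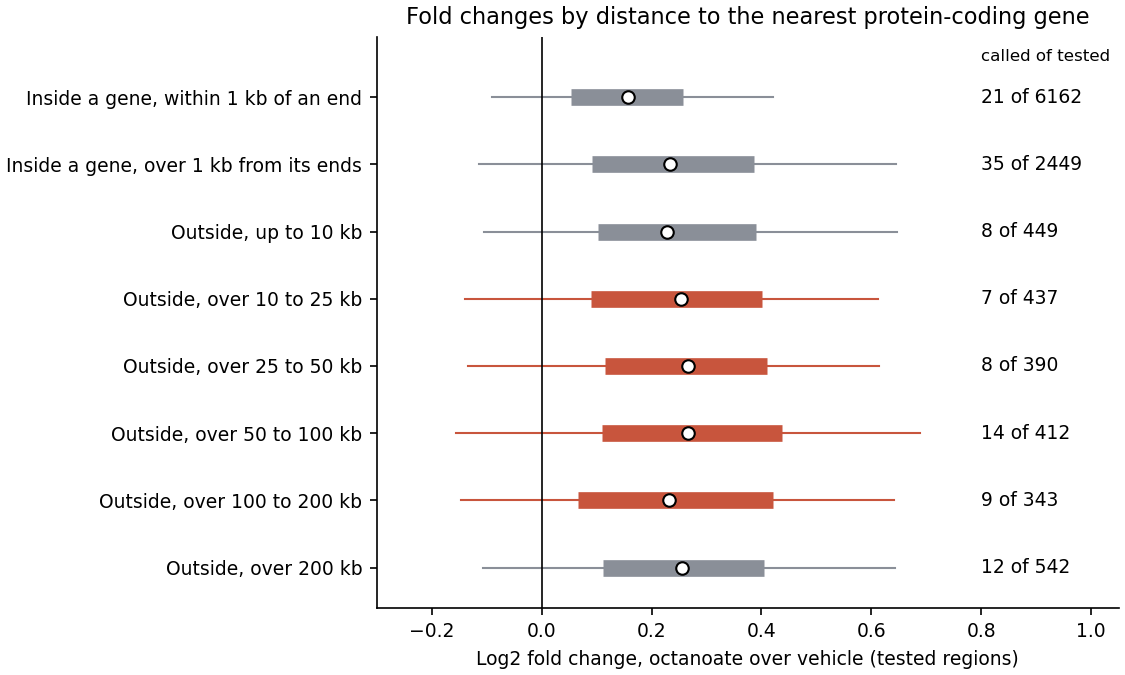
Log2 fold change of tested regions by position relative to protein-coding genes. Circles are medians, thick bars the quartiles and thin lines the range from the 5th to the 95th percentile. The 4 bands of members, in red, have medians from 0.23 to 0.27, and the regions within 1 kb of a gene end have the lowest median, 0.16; counts at the right give called of tested regions.

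Signal strength bears on how small a change can be called. The tested members had a median SE of 0.23, at which a log2 fold change of 0.44 gives an unadjusted p of 0.05 by the deposited normal approximation. A call needed more than that. The called region near TBX3, with an SE of 0.22, had 0.78 and an adjusted p of 0.0440 (DESeq2). When all tested nuclear regions were cut into quartiles of mean signal, 12 of 524, 7 of 454, 4 of 376 and 15 of 228 members were called from the weakest to the strongest quartile, the last being 6.58%. Among other nuclear regions it was 0.572%, 0.342%, 0.744% and 1.44%, and among gene interiors 1.00%, 0.578%, 1.59% and 3.56%. The share was larger among members than among gene interiors in every quartile but that of means from 96.5 to 131, where 9 of 567 gene interiors were called. The median log2 fold change of members in these quartiles stayed between 0.25 and 0.26.

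The 5 members with the highest mean in the authors' deposited table were near TMEM18, KMT2C, GPC5, ALG1L2 and FOXD2, and only the first was called. At chr2:739819-741091, 62.4 kb before the start of TMEM18, a transmembrane protein gene, the mean was 525 normalized reads. Its implied level went from 421 to 629, with 0.58 (SE 0.11) on the log2 scale and 0.000119 as its adjusted p (DESeq2, the authors' deposited table). This is the region that holds the repeated start window of LOC105373480 printed above. How reads that match several places were counted is not given in the sources used here. The region near KMT2C (mean 489), over the start of LINC01003, had 0.27 with an adjusted p of 0.208 (DESeq2, the authors' deposited table). The one near GPC5 (mean 448) covered the start of MIR17HG, the host gene of the miR-17-92 cluster, with 0.09. Those near ALG1L2 (mean 385) and FOXD2 (mean 328) had 0.31 and 0.05. So 4 of the 5 strongest members did not pass the threshold.

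At the other end, the 5 lowest tested members had log2 fold changes from -0.75 to -0.43 in the authors' deposited table, and none was called. The lowest, chr1:178048181-178049314, lay 10.2 kb from CRYZL2P-SEC16B on the side of RASAL2, a RAS GTPase-activating protein gene. Its implied level was 107 in vehicle and 63.4 in octanoate, with -0.75 (SE 0.23) on the log2 scale and 0.0664 as its adjusted p (DESeq2, the authors' deposited table). It was the only member lower at an adjusted p under 0.1. After centring on the tested median its adjusted p was 0.0565, recomputed from the deposited DESeq2 values. The next were nearest to LYPLAL1 (-0.64), KCTD3 (-0.55), FOXD4L6 (-0.47) and FAM135B (-0.43). The region near FOXD4L6 overlapped the pseudogenes FRG1HP and PGM5P2, and whether reads from similar copies were counted there was not tested.

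Called members shared their gaps with other tested members in some cases. The 36 gaps with a called member held 43 further tested members, of which 38 (88.4%) were above 0 in the authors' deposited table, near the 86.5% of all tested members. Their median log2 fold change was 0.36, against 0.26 for all tested members, and 17 were higher and 0 lower at an unadjusted p under 0.05 in that table, where 23% of all tested members were higher. Over the 518 pairs of neighbouring tested members in 1 gap, the log2 fold changes correlated across regions with r = 0.18 and rho = 0.19, a description of pairs that share the 4 libraries and overlap in their members.

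Only 2 gaps held 2 called members. In the 225 kb between IER5 and CACNA1E, a voltage-gated calcium channel gene, 21 of 24 members were above 0. Moving away from IER5, the 4 tested members of IER5/CACNA1E had log2 fold changes of 0.29, 0.90, 0.62 and 0.42 in the authors' deposited table. The second, chr1:181112352-181113621, went from an implied 88.1 to 165 normalized reads, with an adjusted p of 0.00139 (DESeq2). The one after it, chr1:181141404-181142900, went from 134 to 207, with an adjusted p of 0.0281 (DESeq2). The region nearest to IER5 was the strongest, with a mean of 288, and had an adjusted p of 0.253 (DESeq2). So the called regions in this gap were not its strongest one.

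In the 193 kb between SMNDC1, which encodes a splicing factor, and DUSP5, 21 of 22 members were above 0, with a median of 0.69 over all members of SMNDC1/DUSP5. The called pair was chr10:110398448-110399779, from an implied 103 to 165 normalized reads, and chr10:110407824-110408824, from 50.2 to 96.1. Their log2 fold changes in the authors' deposited table were 0.68 (SE 0.18) and 0.94 (SE 0.25), each with an adjusted p of 0.0276 (DESeq2). Another region beside them, chr10:110410243-110411386, had 0.81 with an adjusted p of 0.0846, and the last tested one, closest to DUSP5, had 0.16 with an adjusted p of 0.805 (DESeq2). The tested regions in the middle of the gap were thus the high ones.

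**Figure D4:**
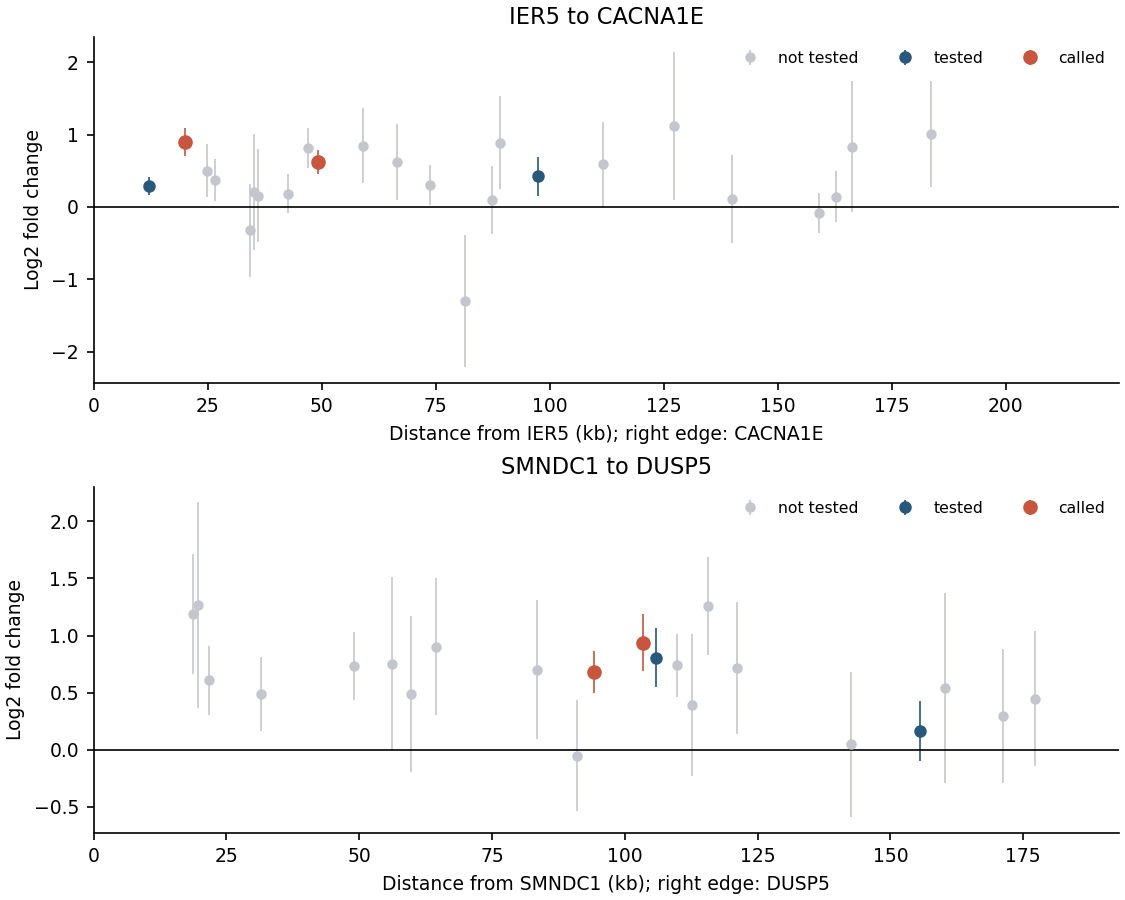
Log2 fold change with its standard error for each member in the gaps between IER5 and CACNA1E and between SMNDC1 and DUSP5, against distance from the left gene in kb. Most members lie above 0 in both gaps, 21 of 24 and 21 of 22. The longest bars belong to the members with the lowest counts, which were not tested and are in grey.

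Of the 15 gaps with a single call and at least 2 tested members, 9 had all tested members above the median of all tested regions, and 5 had a tested member below 0. The lowest of these, in RHOB/HS1BP3, stood at -0.29 in the authors' deposited table. Each count includes the called member of the gap, which lies above the median of all tested regions because calls select high values. The same count for gaps without a call was not made. Of the 9 gaps with all tested members above that median, 4 are described. Between IRF2BP2, a transcriptional corepressor gene, and TOMM20, a mitochondrial import receptor gene, all 9 tested members of IRF2BP2/TOMM20 had values between 0.28 and 0.77 in the authors' deposited table. The highest of them, chr1:234656564-234658544, held the start of LOC124904554. Between SHH, which encodes the Sonic hedgehog ligand, and RNF32, the 3 tested members had 0.50, 0.74 and 0.72, and the 0.74 one was called with an adjusted p of 0.00122 (DESeq2). Between HTR5A and INSIG1, whose protein retains sterol sensors in the endoplasmic reticulum, the 3 had 0.58, 0.48 and 0.50, and the region of 0.48 was called. That region was the strongest of the 3, with a mean of 272 normalized reads in the authors' deposited table. Between DAOA and EFNB2 the 6 tested members ran from 0.29 to 1.06. These gaps were chosen after their values were seen.

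Members over a lncRNA start were strong more often than others. Of 862 such members 175 were tested (20.3%, against 4.40% of all members), and 7 of the 175 were called. Their tested ones had a median of 0.23 on the log2 scale of the authors' deposited table. The 7 start with LOC124904554 near IRF2BP2 (0.77) and LOC124901788 near SHH (0.74), and go on with LINC02848 near ZNF722 (0.73), LOC102724446 near OR14L1 (0.62), LOC105373480 near TMEM18 (0.58), LOC124900609 (0.51) and LOC124901783 near INSIG1 (0.48). They are named for their position and were chosen after their values were seen. Members in a lncRNA span had 15 of 596 called (2.52%), and those in none had 23 of 986 (2.33%). These 2 shares are close together, and both exceed the 1.02% of all tested regions.

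Start windows gave the only sequence view of members. There were 12910 lncRNA start windows of 300 bases, none from chromosome 8, and a gene could have several. Of these, 964 overlapped a member, 3222 another nuclear region and 8724 no listed region. An AP-1 match was found in 19.4% of the windows over members, 8.38% of those over other regions, 10.1% of those over no region and 10.4% of all. AP-1 factors are FOS and JUN dimers that bind at many enhancers. An ETS match was found in 145 of the 964 over members, 23.4% over other regions and 5.23% over no region. E-box matches were found in 6.74%, 7.64% and 4.40%, and TEAD matches in 17.7%, 12.3% and 18.9%. Median GC content was 53.0% over members, 65.0% over other regions and 46.0% over no region, so the classes compared differ in base composition. Protein-coding start windows held an AP-1 match in 6.14% and an ETS match in 21.2%. The E-box reads the same on both strands, and matches of different motifs were allowed to overlap. Over the 210 windows on tested members, the AP-1 share was 17.6%, and 42 held an ETS match. A repeat like that of LOC105373480, with at least 60% identity to itself at a shift of 15 to 150 bases, was seen in 9 of the 964 windows over members (0.934%) and in 0.837% of all. It was seen in 2 of the 7 windows over called members, the second being LOC124900609, with 81.7% identity at a shift of 114 bases.

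Members were also grouped by their nearest gene into lists of genes for melanoma states, signalling and metabolism. The ERK feedback list holds genes that the ERK pathway induces, many of which act back on it, and all 14 of its genes were nearest to some member. Of its 176 members 16 were tested, 1 was called, and all 16 were above 0 in the authors' deposited table, where 86.5% of all tested members were above 0 and 2.40% were called. Their median log2 fold change was 0.43, against 0.26 for all tested members, and 8 were higher at an unadjusted p under 0.05, against 23% of all tested members. The median over all 176, tested or not, was 0.29, against 0.26 for all members. The called one is the region near DUSP5 described above. No p was computed for the list, which was chosen with results of these data known.

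Within that list 5 tested members lay beside MYC, the growth-promoting transcription factor gene, all inside the lncRNA gene PVT1, 66.6 to 164 kb from MYC. Their log2 fold changes in the authors' deposited table, moving away from MYC, were 0.16, 0.56, 0.35, 0.69 and 0.54. The 0.69 region, chr8:127859425-127860432, went from an implied 62.3 to 100 normalized reads with an adjusted p of 0.122 (DESeq2). Beside PHLDA1, an ERK-induced gene of a pleckstrin homology protein, the 2 tested members had 0.67 and 0.18, and beside ETV1, an ETS factor gene, 0.64 and 0.23. The Sprouty genes encode inhibitors of receptor kinase signalling. Members near SPRY4 had 0.05 and 0.50, that near SPRY2 0.34 and that near SPRY1 0.02. None of the tested members of the list other than the DUSP5 one was called. All tested members of this list are named, a choice made after their values were seen.

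The AP-1 and immediate early list had 12 tested members, 2 of them called, both beside IER5, and 11 above 0, a share near the 86.5% of all tested members, of which 2.40% were called. Their median log2 fold change was 0.29 in the authors' deposited table, against 0.26 for all tested members. At an unadjusted p under 0.05 (DESeq2) 4 were higher and 0 lower, against 23% and 0.190% of all tested members. Over all 104 members of the list, tested or not, the median was 0.35, against 0.26 for all members. Next to JUN, an AP-1 subunit gene, the 4 tested members had 0.31, 0.51, 0.17 and -0.01. The 0.51 region, chr1:58848594-58849772 in the lncRNA gene JUN-DT, went from an implied 124 to 177 with an adjusted p of 0.110 (DESeq2). The 2 near FOS had 0.29 and 0.30, close to the median of all tested members. The tested members of this list other than those near IER5 were not called.

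The lists of melanoma states had few tested members and no called one, where 2.40% of all tested members were called, so the absence of a call among so few says nothing about these lists. For the melanocytic list 73 members were nearest to 8 of 15 genes, 4 were tested, and the authors' deposited table gave them values between -0.04 and 0.45, with a median of 0.38. Over all 73, tested or not, the median was 0.14, below the 0.26 of all members. The one with the smallest p, chr3:69998923-70001358, lay 30.6 kb from MITF, the master regulator of pigment cells, inside the lncRNA gene SAMMSON, and had 0.42 with an adjusted p of 0.178 (DESeq2). Its implied level was 143 in vehicle and 191 in octanoate. For the undifferentiated list 13 of 108 members were tested, 9 of them above 0, with a median of 0.19 and a range from -0.42 to 0.55. Over all 108, tested or not, the median was 0.35, against 0.26 for all members. The tested median lay below that of all tested members and the all-member median above that of all members. The lowest of that range lay near TNC, a matrix glycoprotein gene, and the highest near WNT5A, a noncanonical WNT ligand gene. The JUN region above had the smallest p of this list as well, since JUN is on both.

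Near genes of lipid use few members were tested, and their values lay below the median of tested members. The fatty acid oxidation and PPAR list had 44 members near 11 of its 31 genes, 4 of them tested and 0 called. Their log2 fold changes in the authors' deposited table were 0.04 near PDK4, 0.08 near PPARG, and -0.24 and 0.16 near RXRG. Over all 44 members, tested or not, the median was 0.28, close to the 0.26 of all members. PDK4 encodes a kinase that limits pyruvate oxidation, and PPARG and RXRG encode nuclear receptors. The smallest p was at the -0.24 region, chr1:165467519-165468542, whose adjusted p was 0.620 (DESeq2). The YAP and TEAD list had 3 tested members, near AMOTL2 (0.29), CCN1 (0.02) and CRIM1 (-0.15). The neuronal list had 5, near LSAMP (0.16, 0.11 and 0.59), GRIN2B (0.10) and ROBO2 (-0.01), and the smallest adjusted p was 0.251 at the 0.59 region (DESeq2). Their medians were 0.02 and 0.11 over the tested members and 0.17 and 0.24 over all 52 and 236 members, against 0.26 for all members. The 2 tested housekeeping members had 0.32 and 0.36, the latter near YWHAZ. None of these was called, but with so few tested and 2.40% of all tested members called, this says nothing about the lists.

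Lists of other cell types had 0 to 3 tested members each and no called one, too few to read against the 2.40% called among all tested members. Keratinocyte genes had 11 members and none tested, fibroblast genes 39 and 1 tested (PDGFRA, 0.14), and lymphoid and myeloid genes 18 and 3 tested, all nearest to PTPRC. These 3 had -0.20, 0.29 and 0.09, the last 2 in MIR181A1HG, and the median over all 18 was -0.05. Endothelial genes had 35 members and 3 tested, of which the 2 near CDH5 had -0.18 and 0.19. The highest lay 13.9 kb from TEK at 0.64 on the log2 scale, with 0.109 as its adjusted p (DESeq2, the authors' deposited table). These counts describe position, and no cell type is read from them.

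Along the chromosomes the direction of the median was the same throughout. On each of the 23 chromosomes with at least 50 members, the median log2 fold change of members in the authors' deposited table was above that of the other regions of the chromosome. It ran from 0.21 on chromosome 4 to 0.45 on chromosome 19, where 263 members stood beside other regions with a median of 0.21. The other regions include those inside genes within 1 kb of an end, whose median over the whole table was 0.14, tested or not. Members were not compared by chromosome with gene interiors or other regions outside genes alone. Regions share the 4 libraries, so chromosomes are not replicates of the treatment.

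**Figure D5:**
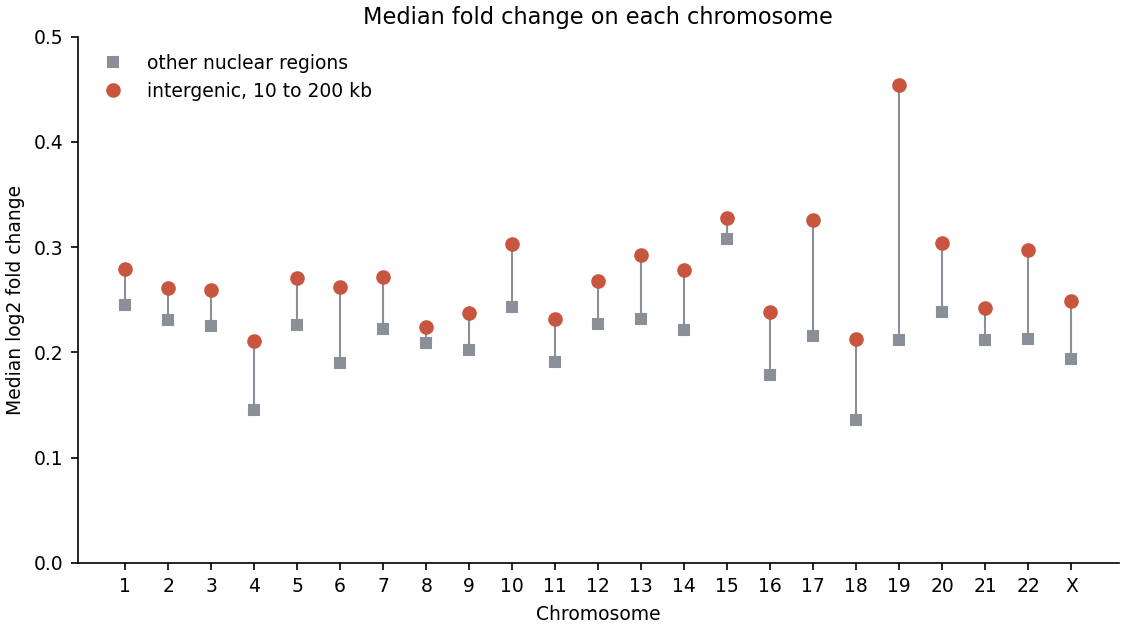
Median log2 fold change, octanoate over vehicle, of all members (red circles) and of all other nuclear regions (grey squares) on each chromosome. Members lie above the other regions, which include those within 1 kb of a gene end, on all 23 chromosomes shown. Member medians run from 0.21 on chromosome 4 to 0.45 on chromosome 19.

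Members close to chromosome ends were called more often. Within 5 Mb of an end, 9 of 125 tested members were called (7.20%), and the median of the 125 was 0.35 on the log2 scale of the authors' deposited table. Farther in, 29 of 1457 were called (1.99%), with a median of 0.25. The other nuclear regions had the same order, with 35 of 877 called near ends (3.99%) and 41 of 8725 farther in (0.470%). The members near ends include the regions beside TSNARE1, ASB1, SMARCA2, TMEM18, SHH and INSIG1. They were 23.7% of the called members and 7.90% of the tested ones. What the distance to an end contributes to the calls was not tested.

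At the edges of the window, the first member past 10 kb lay 10.002 kb from LOC124903206 with a log2 fold change of 0.87 (SE 0.39), and the closest region left out lay 10.000 kb from MYH3 with 0.03 (SE 0.42). At the far edge the last member lay 199.999 kb from FAM47A with -0.06 (SE 0.64), and the first region left out lay 200.013 kb from RAB11FIP2 with -0.01 (SE 0.92). These values are from the authors' deposited table, and none of the 4 regions was tested.

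Some called members lie over or beside members of multigene families. The region near FAM90A26 on chromosome 4 overlapped a pseudogene of the FAM86 family, and stood at 0.53 on the log2 scale, with 0.0259 as its adjusted p (DESeq2, the authors' deposited table). The regions near SLC2A9, on the side of the defensin gene DEFB131A (0.77), near ZNF722 (0.73) and near OR14L1 (0.62) also lie nearest to, or in a gap bounded by, genes of such families. Whether reads from similar copies entered these counts was not tested, and the values are given as uncertain. The regions were chosen after their values were seen.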

How the data were processed

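ATAC-seq libraries of A375 cells, 2 given octanoate and 2 given vehicle, were compared through 1 table made by the authors. Per the submitters' processing notes, Trim Galore, cutadapt, FastQC, Bowtie2, Picard, MACS2, featureCounts, DESeq2 and bedtools 2.29.1 were used with the build hg38, with no roles, order or settings given. Whether reads were shifted to the Tn5 insertion, and how reads that match several places were handled, is not given in the sources used here. Per the file headers, the deposited signal is a mean of normalized read counts, taken over all 4 libraries. The deposited log2 fold change compares octanoate with vehicle and has a standard error, and the deposited score equalled their quotient to within 2.31e-14. The deposited p-value was that score's normal two-sided p, and the deposited adjusted p equalled a Benjamini-Hochberg adjustment over the 11185 regions whose mean reached 63.8, to within 1.69e-14. The others are listed at 1 and were treated as not tested. The depth of each library is unknown, so no counting intervals are given, and an average depth in the labels was not used.

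Region positions, counted from 1, were compared in Python 3.11.15 (numpy 2.4.6, pandas 2.3.3, scipy 1.17.1) with the 20033 nuclear protein-coding genes of RefSeq GRCh38.p14. Group levels were derived from the mean and fold change of the deposited table, which assumes that the fold change was not shrunk. Centring subtracted the median of the tested regions. Steps across regions were tested on simulated data. No genome was used here, so sequence features come only from RefSeq start windows.

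Named regions were the 15 largest rises and falls past the threshold (1 per nearest gene), the 5 highest means, the 5 lowest tested members, the smallest p in each gene list, and the edges of the window. Members and lists were chosen with earlier results of these data known. Alternatives covered thresholds, adjustment, centring, distance windows, gene types, chromosomes and reference classes.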

Additional observations from a re-analysis of the deposited data

How the results depend on the processing

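No result changed direction under the alternatives run. The count of 38 called members, all higher, became 92 at an adjusted p under 0.1 (91 higher, 1 lower), 7 at 0.01, 7 with Benjamini-Hochberg over all listed regions, 2 after centring on the tested median, 3 after centring on that of all listed regions (2 higher and 1 lower), 6 where a doubling was required, 9 at 100 to 200 kb and 24 with spans of all gene types. It was 29 to 42 in the other 5 settings. Of the 15 named rises, 3 kept their call under adjustment over all regions and 2 under each centring.

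The median of 0.255 over tested members became 0.0687 after centring and 0.232 at 100 to 200 kb, and was 0.248 to 0.264 otherwise. The difference of 0.048 from other nuclear regions became 0.0765 over tested regions, 0.0382 with an equal mix of signal (members higher in 19 of 20 bins), 0.0600 against regions that overlap genes, 0.0322 at 100 to 200 kb, 0.0221 against gene interiors (0.0215 over tested regions) and 0.0228 against regions over 200 kb from a gene. Other windows gave 0.0456 and 0.0525, and leaving out chromosome ends 0.0475. Whether a median had moved was judged against a 95% interval over regions, which is not a spread between replicates. Leaving out chromosome ends or pseudogene overlaps from the count, leaving out lncRNA starts, and the gene interior and over 200 kb references were chosen after seeing the data.

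No paired analysis was possible because no value per library is in the table, although the titles share replicate numbers, and leaving out a library was not run for the same reason. Base composition and motifs of whole regions were not run, as no genome was used. Low signal allowed a test in only 4.40% of members.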

Other observations

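Members over microRNA genes were not described above. Of 29 such members 4 were tested and 0 were called in the authors' deposited table (DESeq2), too few to read against the 2.40% called among all tested members. The strongest, near MIR4449 over the start of the lncRNA gene DANCR, had a mean of 199 normalized reads and a log2 fold change of 0.23 (SE 0.15). The other tested ones were at MIR5087 (0.35), MIR1915 (0.09) and MIR6077 (0.38). MIR155, a microRNA of immune cells, had a mean of 46.3 and a log2 fold change of -0.02 (SE 0.31) and was not tested.

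The weakest members had the widest deposited log2 fold changes. In the lowest of 10 equal groups of members ordered by mean, the median was 0.36 with quartiles of -0.42 and 0.90 and a median SE of 1.26 in the authors' deposited table. In the highest group it was 0.25 with quartiles of 0.09 and 0.43 and a median SE of 0.27. The medians did not fall steadily in between, with 0.24 in the sixth and in the seventh group.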
